A study of Mus musculus with 16 samples.

Results

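Tumor necrosis factor, its receptors and the regulators that its signal induces were examined in bone marrow derived macrophages (BMDM) as a set of 9 genes chosen by name. The set holds Tnf, Tnfsf9, Tnfrsf1a, Tnfrsf1b, Tnfaip2, Tnfaip3, Tnip1, Traf1 and Traf2. All 9 were found among the 9614 genes of the expression table. The rule lists names only, and the names were proposed with earlier results of these data known. BMDM are macrophages grown from bone marrow, here of male C57BL/6 mice aged 8 weeks. Control mice carried LysM-Cre with the wild type Nelfb locus (LysM-Cre:NELF-B wt/wt, here WT), and knockout mice carried LysM-Cre with a loxP-flanked locus (LysM-Cre:NELF-B fl/fl, here KO). LysM-Cre drives deletion in myeloid cells, and the controls carried it too. NELF-B is a subunit of the complex that holds RNA polymerase II paused shortly after initiation. Cells were left untreated, given 10 ng/ml lipopolysaccharide (LPS) for 1 hr, or given LPS with 100 nM dexamethasone (Dex), a synthetic glucocorticoid, for 1 hr. Each genotype had 3 mice, called A, B and C, with 2 untreated, 3 LPS and 3 LPS + Dex libraries, since mouse C had no untreated library. Polyadenylated RNA was sequenced, and values are log2 CPM (counts-per-million reads), so that 1 unit is a 2-fold difference.

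TNF is an early cytokine of the macrophage response to LPS. It is made as a membrane protein, is shed, and binds TNFR1, which most cells carry, or TNFR2, which is mainly found on immune and endothelial cells. The receptors recruit TRAF adaptors and ubiquitin ligases that turn on NF-kB, and NF-kB in turn raises its own brakes, among them the ubiquitin-editing enzyme A20 (Tnfaip3) and its partner ABIN-1 (Tnip1). Glucocorticoids act through the glucocorticoid receptor and repress many inflammatory genes in macrophages.

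Promoter sequence is shown for 3 members whose upstream windows held a match to a searched motif: Tnf, which stood highest after LPS, and Tnfaip3 and Tnip1, which encode partners in one inhibitory complex. RefSeq windows on GRCm38.p6 were matched for 8 of the 9 members, in 9 windows, and Tnfsf9 was not matched. The 250 bases before each start were searched on both strands for the NF-kB consensus, for TATAAA and for TGANTCA, the core recognized by AP-1. Capitals mark matches to the NF-kB consensus or to TATAAA, and sequences read 5′ to 3′ on the strand of the gene. The Tnf sequence is chr17:35202008-35202257, minus strand. The Tnfaip3 sequence is chr10:19015411-19015547, minus strand, the 137 bases next to the start that hold no annotated exon. The Tnip1 sequence is chr11:54962941-54963190, minus strand.
Tnf: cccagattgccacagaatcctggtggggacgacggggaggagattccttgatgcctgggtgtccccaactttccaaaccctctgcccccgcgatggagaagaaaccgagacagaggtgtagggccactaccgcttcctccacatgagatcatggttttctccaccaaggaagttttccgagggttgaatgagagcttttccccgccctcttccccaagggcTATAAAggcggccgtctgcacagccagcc
Tnfaip3: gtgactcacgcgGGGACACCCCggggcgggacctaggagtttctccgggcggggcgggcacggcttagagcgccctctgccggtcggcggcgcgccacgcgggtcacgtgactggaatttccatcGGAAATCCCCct
Tnip1: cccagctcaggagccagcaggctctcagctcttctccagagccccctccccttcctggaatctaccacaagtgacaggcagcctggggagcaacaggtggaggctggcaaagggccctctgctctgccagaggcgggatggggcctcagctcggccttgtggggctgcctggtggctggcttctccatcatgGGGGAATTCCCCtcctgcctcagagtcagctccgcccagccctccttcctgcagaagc
The TATAAA of Tnf ended 24 bases before the start, and its window held no NF-kB consensus match. Tnfaip3 had 2 windows. Window 1, part of which is shown, held NF-kB consensus matches that ended 116 and 3 bases before the start and a TGANTCA at 130 bases. Outside the stretch shown, it held a TATAAA at 220 bases. Window 2, at chr10:19011964-19012213, held none of the 3 motifs. The Tnip1 window held 3 overlapping NF-kB consensus matches 47 to 49 bases before the start. None of the windows of Tnfrsf1a, Tnfrsf1b, Tnfaip2, Traf1 and Traf2 held any of the 3 motifs. The Tnfaip2 window, chr12:111442411-111442660, contains the annotated gene start at 111442469. It thus holds transcribed bases, and sequence further upstream of that start was not searched. Of 9469 windows of genes in the table, 4.64% held the NF-kB consensus, 6.13% held TATAAA and 4.41% held TGANTCA. Among all 32817 windows the shares were 3.9%, 12.4% and 6.75%. A match describes letters in a window and is not evidence of binding.

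The libraries held about 25000000 to 49700000 reads on the genes of the table, so 3 reads equalled 0.065 to 0.136 CPM. Nelfb was 5.59 to 6.21 log2 CPM in the 8 WT libraries and 3.27 to 4.38 in every KO library. Of 8 macrophage markers 7 were in the table, with a summed level of 6272.7 to 9122 CPM per library. Among them Lyz2 had 4.31 to 5.30 log2 CPM in WT and 5.38 to 6.33 in KO, a difference that was not tested. The summed neutrophil, dendritic, B cell and stromal lists reached at most 145 CPM. Only 1 of 7, 2 of 5, 1 of 5 and 4 of 5 of their markers were in the table, in that order. No T or NK, erythroid or mast cell marker was in the table. The untreated WT library of mouse A stood apart, with a Pearson r of 0.83 to 0.909 with the other libraries, and LPS results in WT are also given without it. The mice are separate animals. The p-values of the fit of all 16 libraries rest on the spread among libraries within groups, and that fit ignores that libraries share a mouse. Those of fits with a mouse block rest on the spread of changes within mice.

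Tnf rose from a low level to one of the most abundant messages of the set (gene at chr17:35199381-35202007, minus strand, GRCm38). Untreated WT cells had 5.09 log2 CPM in mouse A and 6.20 in mouse B, and untreated KO cells had 5.29 and 6.09. After LPS the levels were 11.55, 11.67 and 11.60 for WT animals A to C, and 11.74, 11.87 and 11.63 for the KO animals. In both genotypes every LPS library was above every untreated one, and mouse A was the lower of the untreated pair. The rise was 62.5-fold in WT (95% CI 41.2 to 94.7, limma adjusted p = 1.06e-08) and 66.6-fold in KO (limma adjusted p = 8.62e-09). In bulk RNA, a change in the number of responding cells and a change in the amount of RNA per cell cannot be told apart.

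Tnfsf9 encodes the 4-1BB ligand, a TNF family costimulator of T cells (chr17:57105325-57107757, plus strand). It had the largest LPS change of the 9 members. The untreated WT libraries had 1.41 and 0.84 log2 CPM, from 58 and 54 reads, and the untreated KO libraries 1.36 and 1.38, from 100 and 91 reads. After LPS the values were 8.26, 7.72 and 8.16 in WT and 8.54, 8.37 and 8.37 in KO. The LPS and untreated libraries did not overlap in either genotype. The rise was 121-fold in WT (95% CI 87 to 169, limma adjusted p = 2.95e-10) and 133-fold in KO (limma adjusted p = 2.31e-10). An antisense gene, Gm11110, overlaps 192 exonic bases of Tnfsf9, and strand was not stated for the counting, so reads there cannot be assigned to one gene. Among 9614 genes ranked by LPS change, Tnfsf9 was 12th in WT and 11th in KO, Tnf was 16th and 14th, and Tnfaip3 was 18th in both.

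Both receptor genes were already expressed in untreated cells. Tnfrsf1a, encoding TNFR1 (chr6:125349362-125362484, plus strand), stayed between 7.39 and 7.80 log2 CPM in all 16 libraries. Its LPS change was 0.03 in WT (limma adjusted p = 0.915) and 0.05 in KO (limma adjusted p = 1.0), and its sign depended on the fit. Tnfrsf1b, encoding TNFR2 (chr4:145213463-145246870, minus strand), had 10.59 and 10.48 in untreated WT cells, and 11.15, 10.82 and 11.16 after LPS. The corresponding KO values were 11.08 and 10.70 untreated and 11.34, 11.07 and 11.21 after LPS. These groups did not overlap in WT but did in KO. The change was 0.50 in WT (limma adjusted p = 0.118) and 0.32 in KO (limma adjusted p = 0.876), and neither was called. Without the WT LPS library of mouse B, the WT change was 0.62 and was called (limma adjusted p = 0.0925, against 0.0154 to 0.645 over all alternatives).

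The adaptors differed from each other. TRAF1 (chr2:34941750-34961772, minus strand) is itself induced by NF-kB, while TRAF2 (chr2:25517982-25546940, minus strand) is the adaptor that brings ubiquitin ligases to the TNF receptors. Traf1 had 3.69 and 3.14 log2 CPM in untreated WT cells and 5.40, 5.34 and 5.70 after LPS. In KO cells it had 3.08 and 2.61 untreated and 5.13, 5.85 and 4.75 after LPS. The groups did not overlap, and the rise was 4.2-fold in WT (limma adjusted p = 0.0016) and 5.26-fold in KO (limma adjusted p = 0.000502). Traf2 had 4.51 to 5.24 over the untreated and LPS libraries, with LPS changes of -0.15 in WT (limma adjusted p = 0.613) and 0.13 in KO (limma adjusted p = 1.0).

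Traf1 spread widely among the KO mice, with mouse B highest under LPS and under LPS + Dex. Ccr7, 1 of 2 dendritic cell markers in the table, was 2.18 to 3.33 in the mouse B libraries of both genotypes and -1.12 to 0.52 in all others. The other marker, Itgax, was also highest in mouse B within each genotype, though close to mouse A in WT. It was 4.22 to 4.28 in WT mouse B, 4.09 to 4.15 in WT mouse A and 2.93 to 3.13 in WT mouse C. In KO it was 3.30 to 3.48 in mouse B and 2.56 to 2.81 in mice A and C. Cd79b, the B cell marker in the table, was likewise highest in mouse B in each group. S100a8, the neutrophil marker in the table, was lowest in mouse B in each group. WT mouse B, with high Ccr7, had the lowest Traf1 of the WT mice under LPS and under LPS + Dex, 5.34 and 4.75, and untreated KO mouse B, at 2.61, was below mouse A. Whether Ccr7 or these other markers bear on the Traf1 spread was not tested.

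All 3 induced regulators rose. Tnfaip3, which encodes A20 (chr10:19000910-19015657, minus strand), had 5.30 and 6.16 log2 CPM in untreated WT cells and 10.98, 11.08 and 10.88 after LPS. In KO cells it had 5.88 and 5.83 untreated and 11.17, 11.28 and 11.08 after LPS. The rise was 38-fold in WT (limma adjusted p = 1.03e-09) and 40-fold in KO (limma adjusted p = 9.69e-10). Tnfaip2, a TNF-inducible gene whose product promotes membrane nanotubes (chr12:111442469-111455018, plus strand), had 8.96 and 8.89 in untreated WT cells and 10.59, 10.38 and 10.54 after LPS. Its rise was 2.99-fold in WT (limma adjusted p = 7.24e-06) and 3.47-fold in KO (limma adjusted p = 1.99e-06). An antisense gene, Gm40578, overlaps 150 of its exonic bases. Tnip1 (chr11:54910785-54962917, minus strand) rose from 8.03 and 7.75 to 8.93, 8.69 and 8.86 in WT, a 1.91-fold change (limma adjusted p = 0.000821). In KO it rose from 7.84 and 7.64 to 8.88, 8.84 and 8.86, a 2.17-fold change (limma adjusted p = 0.000178). LPS groups lay above untreated groups for all 3 genes in both genotypes. The share of all genes whose groups separate likewise was not counted, for these or for the members above. The WT call of Tnip1 was lost when only the compared libraries (adjusted p = 0.167) or only mice A and B (adjusted p = 0.408) entered limma, against 0.000106 to 0.408 over all alternatives.

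**Figure D1:**
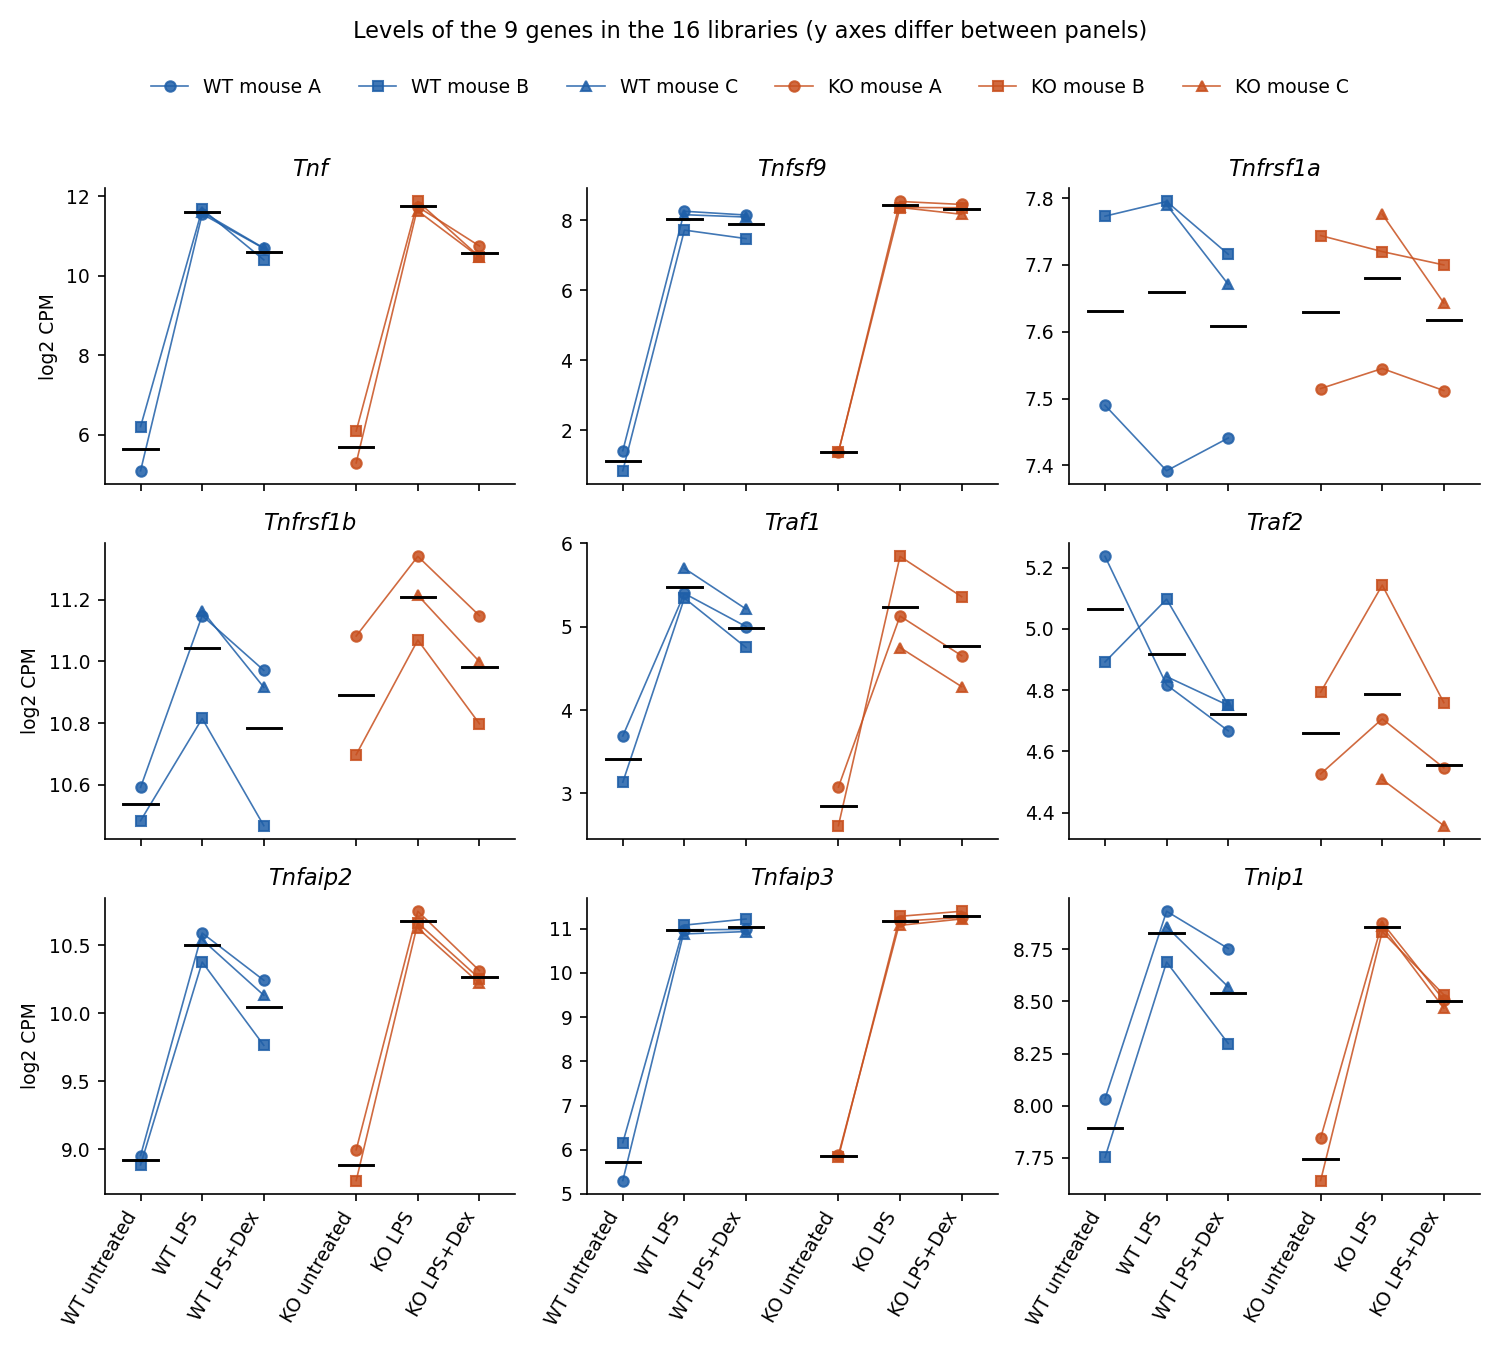
Level of each of the 9 genes, in log2 CPM, in each of the 16 libraries, grouped by genotype and treatment, with lines joining libraries of one mouse and bars at the group means. Tnf, Tnfsf9 and Tnfaip3 rise most after LPS, while Tnfrsf1a stays between 7.39 and 7.80 throughout.

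By the LPS criterion of FDR under 0.1 and over 1.5-fold, 6 of 9 members were higher in WT, where 6.01% of all genes were, and 6 of 9 were higher in KO, where 3.08% were. None was lower, where 3.14% of all genes were lower in WT and 1.24% in KO. At an unadjusted p under 0.05, limma also put 0 members lower in each genotype, where 12.8% of all genes were lower in WT and 4.11% in KO. The median LPS change of the members was 1.58 in WT and 1.795 in KO, against 0.02 and -0.005 over all genes. Without the untreated WT library of mouse A, 6 members were still called higher in WT, where 3.09% of all genes were, and 0 lower, where 1.23% were. With the mouse as a block, 6 members were called higher in each genotype, where 1132 of all 9614 genes were in WT and 388 in KO.

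Per kilobase of exon, the order of the genes changed with LPS. In untreated WT cells Tnfrsf1b led with a level of 390 CPM per kb, followed by Tnfaip2 with 124 to 130, Tnfrsf1a with 92.4, Tnip1 with 78.8 and Tnf with 32.8. Tnfaip3 had 12.1, Traf2 11, Traf1 2.68 and Tnfsf9 1.72. The ranges of Tnfrsf1a and Tnip1 overlapped, as did those of Tnfaip3 and Traf2. After LPS Tnf led in WT with 1910 CPM per kb, above Tnfrsf1b with 556, Tnfaip3 with 440, Tnfaip2 with 381 and Tnfsf9 with 208. Tnip1 had 150, Tnfrsf1a 94.5, Traf1 11.1 and Traf2 9.91, and the ranges of the last pair overlapped. In KO after LPS, Tnf also led, with 2100 CPM per kb.

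Tnf was lower with Dex in every mouse, while Tnfaip3 and Tnfsf9 stayed close to their LPS levels. With LPS + Dex, the Tnf level was 10.69, 10.40 and 10.70 log2 CPM in WT and 10.75, 10.48 and 10.47 in KO, in the order A to C. Every LPS + Dex library was below every LPS library of its genotype, and the share of all genes that separate likewise was not counted. Compared within the same mouse, the Tnf level in CPM was lower with Dex by 45.2%, 58.7% and 46.6% in WT and by 49.6%, 61.9% and 55.4% in KO. In mice A and B, which had untreated libraries, Dex removed 45.7% to 63.1% of the LPS rise. Tnf was still far above the untreated level.

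In the fit of all 16 libraries without a mouse term, the Dex change of Tnf was -1.02 in WT (95% CI -1.55 to -0.48, limma adjusted p = 0.121) and -1.18 in KO (limma adjusted p = 0.0461). The Dex criterion was FDR under 0.1 and over 1.3-fold. By it, 0 of 9 members were lower in WT, where 0.322% of all genes were, and 1 of 9, Tnf, was lower in KO, where 0.447% were. None was higher, where 0.666% of genes were in WT and 0.832% in KO. At an unadjusted p under 0.05, 3 members were lower in each genotype, where 1.58% of all genes were in WT and 1.74% in KO, and 0 were higher, where 1.87% and 2.13% were. Limma-voom on recovered reads called 0 members lower in WT, where it called 0.343% of all genes, and 1 in KO, where it called 0.489%. Leaving out any KO LPS or LPS + Dex library ended the KO call (adjusted p = 0.105 to 0.213). With the mouse as a block, Tnfaip2 was called in WT (adjusted p = 0.0243) and KO (adjusted p = 0.0337), and the number of members called lower was 1 in WT, where 1.22% of all genes were, and 2 in KO, where 1.45% were.

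LPS and LPS + Dex libraries of one letter come from the same animal, and a fit of these 12 libraries with a mouse block, added after the data were seen, compares them within mice. Under it 3 of 9 members, Tnf, Tnfaip2 and Traf1, were called lower in WT, where 2.17% of all genes were, and the same 3 were called lower in KO, where 2.55% were. None was higher, against 2.38% in WT and 2.77% in KO, and at an unadjusted p under 0.05 0 members were higher in WT and 1 in KO, where 8.08% and 12.7% of all genes were. For Tnf the SE was 0.08 and the limma adjusted p was 1.75e-06 in WT and 4e-07 in KO. Leaving out each mouse in turn gave adjusted p values of 2.2e-07 to 3.23e-05 in WT and 4.68e-08 to 3.13e-05 in KO.

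Tnfaip2 fell by 0.35, 0.61 and 0.41 log2 units in WT and by 0.44, 0.41 and 0.41 in KO (limma adjusted p = 1.83e-05 and 3.44e-05 over the 12 libraries). Without WT mouse B its WT change was -0.38, under the 1.3-fold criterion. Traf1 fell by 0.40, 0.59 and 0.49 in WT and by 0.48, 0.48 and 0.47 in KO (limma adjusted p = 9.19e-06 and 1.08e-05). The Traf1 change was thus similar in every mouse, although its level was not. Dex removed 31.5% to 53.7% of the LPS rise of Tnfaip2 in CPM and 31.9% to 42.9% of that of Traf1 in the mice with untreated libraries.

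Tnip1 was lower by 0.18 to 0.39 in the 6 mice (limma adjusted p = 0.000283 in WT and 3.84e-05 in KO), which passed the FDR but not the fold criterion. Without KO mouse B its KO change was -0.38 and passed both. Tnfrsf1b was lower by 0.18 to 0.35 (limma adjusted p = 0.000947 and 0.00224) and Traf2 by 0.09 to 0.38 (limma adjusted p = 0.0722 and 0.0249), also under 1.3-fold. In all, 6 of 9 members were lower and passed the FDR in both genotypes, where 5.28% of all genes did.

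Tnfsf9 kept most of its rise. With LPS + Dex it had 8.15, 7.48 and 8.09 log2 CPM in WT and 8.45, 8.36 and 8.17 in KO, overlapping the LPS values in both genotypes. Its change was -0.14 in WT (limma adjusted p = 0.0621 over the 12 libraries) and -0.10 in KO (limma adjusted p = 0.187), and Dex removed 0.418% to 15.6% of its rise. Tnfaip3 had 10.98, 11.22 and 10.94 in WT and 11.25, 11.39 and 11.22 in KO, with changes of 0.07 (limma adjusted p = 0.455) and 0.11 (limma adjusted p = 0.0823). Tnfrsf1a had changes of -0.05 (limma adjusted p = 0.62) and -0.06 (limma adjusted p = 0.363). Counting direction alone, 7 of 9 members were lower with Dex in all 6 mice, where 10.4% of all genes were, and Tnfaip3 was higher in all 6, where 9.16% were.

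**Figure D2:**
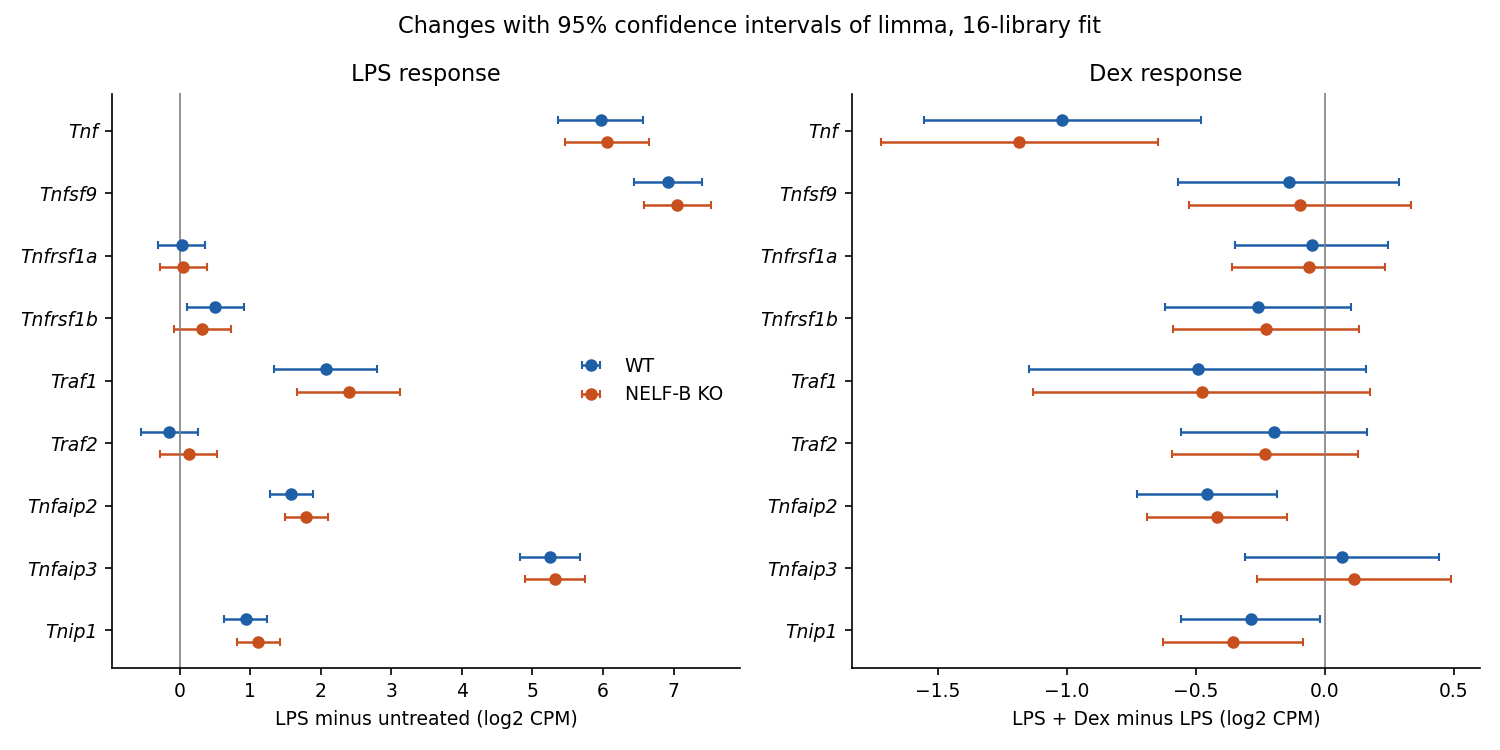
Change in log2 CPM of each member after LPS and after adding Dex to LPS, in WT and KO, with 95% confidence intervals from the limma fit of all 16 libraries. Tnf moves most with Dex, by -1.02 in WT and -1.18 in KO.

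**Figure D3:**
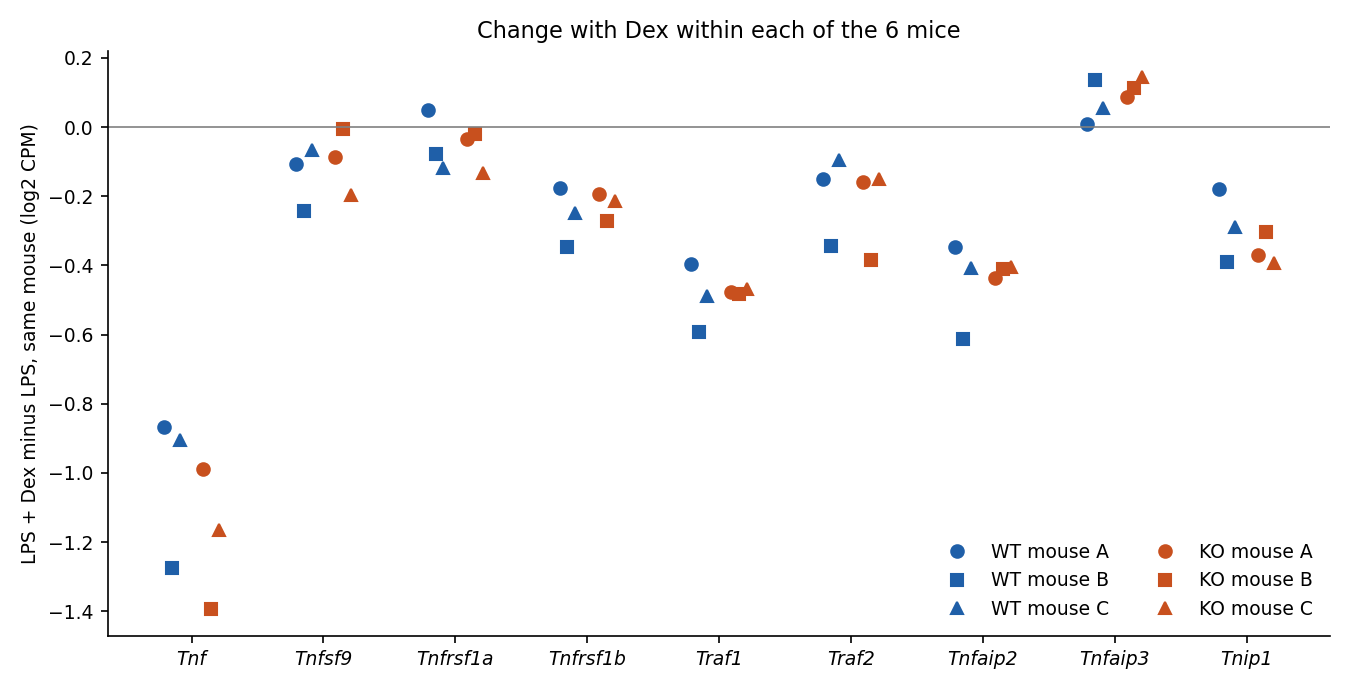
Dex change in log2 CPM (LPS + Dex minus LPS) within each of the 6 mice, 1 point per mouse and gene, coloured by genotype. Tnf is lower in all 6, and the Tnfaip3 points all lie just above 0.

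No member differed between the genotypes by the criterion of FDR under 0.05 and over 1.5-fold. The count was 0 of 9 in untreated cells, where 0.0104% of all genes were called, 0 of 9 after LPS, where 0.146% were, and 0 of 9 with LPS + Dex, where 0.114% were. The deleted gene Nelfb itself was not called in untreated cells, at -2.11 (limma adjusted p = 0.106). The untreated comparison can therefore miss a large difference. Nelfb was called after LPS (limma adjusted p = 0.0111) and with LPS + Dex (limma adjusted p = 0.00846). At an unadjusted p under 0.05 this fit put 0 members in either direction in each treatment, where 15.2% of all genes passed untreated, 6.92% after LPS and 7.93% with LPS + Dex. Limma-voom put 0 members untreated, 0 after LPS and 1 with LPS + Dex, where 13.7%, 7.23% and 8.19% of all genes passed. With a term for the mouse letter added, 2 members passed untreated, Tnfrsf1b and Traf2, where 27.5% of all genes did. Under that fit 1 member, Tnfsf9, passed after LPS, where 13.0% did, and 3, Tnfsf9, Tnfrsf1b and Tnfaip2, passed with LPS + Dex, where 14.6% did. All of these were higher in KO except Traf2, and none passed the FDR. The KO minus WT difference of Tnf was 0.04 in untreated cells (95% CI -0.61 to 0.70), 0.14 after LPS (-0.40 to 0.67) and -0.03 with LPS + Dex (-0.57 to 0.51). These intervals include differences of over 1.3-fold in both directions.

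Tnfsf9 showed the largest upward difference of the set after LPS. The LPS libraries had 8.37 to 8.54 in KO and 7.72 to 8.26 in WT, and how many of all genes separate likewise was not counted. The mean difference was 0.38 and was not called (95% CI -0.05 to 0.81, limma adjusted p = 0.89). With LPS + Dex it was 0.42 (95% CI -0.01 to 0.85, limma adjusted p = 0.646). The labels do not state that WT and KO mice given the same letter belong together. With a term for the letter, the limma adjusted p values were 0.297 and 0.199, and over all alternatives they ran from 0.297 to 1.0 after LPS and from 0.199 to 1.0 with LPS + Dex. By letter the differences were 0.28, 0.65 and 0.21 after LPS. For Traf1 the difference after LPS was -0.24, made up of -0.27, 0.50 and -0.95 for letters A, B and C, so its sign was not shared. Tnfrsf1b was higher in KO in all 8 comparisons of same-letter libraries, by 0.05 to 0.49, where 7.72% of all genes were. In the 6 comparisons with LPS or LPS + Dex, 4 members, Tnfsf9, Tnfrsf1b, Tnfaip2 and Tnfaip3, were higher in KO each time, where 14.9% of all genes were.

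**Figure D4:**
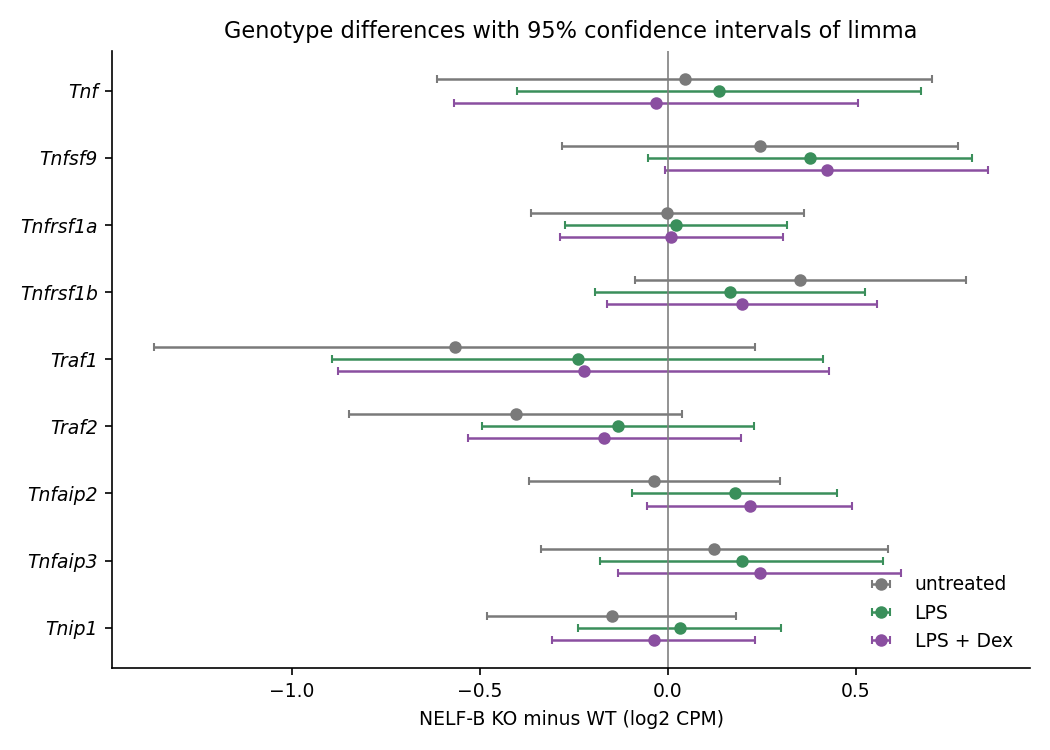
KO minus WT difference in log2 CPM of each member in untreated, LPS and LPS + Dex cells, with 95% confidence intervals. The intervals of all 9 members include 0 in each treatment.

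The change with treatment was also compared between genotypes. The LPS response of KO minus that of WT ranged from -0.19 for Tnfrsf1b to 0.33 for Traf1, and was 0.09 for Tnf (95% CI -0.76 to 0.94). The Dex response of KO minus WT ranged from -0.17 to 0.05, and was -0.17 for Tnf (95% CI -0.93 to 0.59). Within mice, over 12 libraries, the Tnf interval was -0.41 to 0.08 (limma adjusted p = 0.803, and 0.803 to 1.0 over all alternatives). For either difference 0 of 9 members and 0.0% of all genes passed an FDR of 0.05. At an unadjusted p under 0.05, limma put 0 members and 2.3% of all genes for LPS and 0 members and 0.0% of genes for Dex. Without the untreated WT library of mouse B, which leaves that of mouse A alone, 1817 genes were called higher and 1917 lower for LPS and still 0 members. Over the 12 libraries, 1 gene that is no member was called for Dex, Dusp2, named here after its values were seen.

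The genes whose levels followed Tnf most closely over the 16 libraries were Ccl4, Il1a, Il6, Il1b and Ccl3, with Pearson r of 0.986 to 0.991. They encode chemokines and cytokines. Tnfsf9 was followed most closely by Gem, Ccrl2, Plk2, Tlr2 and Cxcl2, with r of 0.992 to 0.997. The points share mice and treatment groups, so r mainly describes the treatment levels and was not tested. Il1b, for example, had 9.48, 9.87 and 9.56 log2 CPM in WT after LPS and 7.59, 7.78 and 7.62 with LPS + Dex. Gem had 5.73, 5.03 and 5.47 after LPS and 5.41, 4.67 and 5.25 with LPS + Dex. Over the 12 libraries with the mouse block, all 5 genes that followed Tnf were called lower with Dex in both genotypes, where 2.17% of all genes were in WT and 2.55% in KO. Their LPS and LPS + Dex libraries overlapped for Ccl4 and Ccl3 in WT and for Il6 in KO, and the share of all genes with overlap was not counted. Of the 5 that followed Tnfsf9, 1 was called lower in WT, Ccrl2, and 0 in KO. At under 1.3-fold, Gem (limma adjusted p = 0.000652 in WT) and Cxcl2 were lower and passed the FDR in both genotypes. So did Ccrl2 in KO, at -0.376 (limma adjusted p = 7.45e-06), and Tlr2 in WT, at -0.188 (limma adjusted p = 0.00767). Plk2 was higher and passed the FDR in both genotypes, also uncalled. These genes were chosen on the same libraries, those with Dex included, so their Dex counts are no independent result.

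Other genes of the pathway were counted in 5 lists, and the LPS counts stand beside 6.01% of all genes higher and 3.14% lower in WT, and 3.08% higher and 1.24% lower in KO. Among TNF family ligands 2 of 16 were in the table, and Tnfsf15 rose with LPS by 3.40 in WT (limma adjusted p = 0.000316) and 2.90 in KO (limma adjusted p = 0.00129). Without the untreated WT library of mouse A its WT change was 2.38. Among receptors 11 of 26 were in the table. Cd40, the receptor through which T cells activate macrophages, rose by 1.57 in WT and 1.69 in KO (limma adjusted p = 0.00323 and 0.00199). The lymphotoxin receptor gene Ltbr fell by 0.79 in WT (limma adjusted p = 0.0325) and had -0.20 in KO (limma adjusted p = 1.0). Its level was 7.81 log2 CPM in the untreated WT library of mouse A and 6.93 in that of mouse B, and without the former the WT change was -0.36 and was not called.

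Of the receptor complex and kinase genes, 26 of 27 were in the table, and LPS raised 5 in WT and 2 in KO and lowered 1 in WT. Cflar, an inhibitor of caspase-8, rose by 2.33 and 2.13, and Birc3, a ubiquitin ligase of the complex, by 1.82 and 1.34. Without the untreated WT library of mouse A, the WT change of Birc3 was 1.203. Of the ubiquitin editors and their relatives, 14 of 17 were in the table. LPS raised 3 in WT and 2 in KO and lowered 1 in WT. Nfkbia, which encodes the NF-kB inhibitor IkBa, had a change of 3.34 in WT and 3.52 in KO. Tnip3, which encodes another A20 partner, rose by 1.82 in WT and 1.64 in KO, and Dex lowered it by 0.79 in WT (limma adjusted p = 0.0442) and 0.85 in KO (limma adjusted p = 0.0235).

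Of the genes that control Tnf shedding and Tnf mRNA, 14 of 15 were in the table, and LPS raised 4 in WT and 5 in KO. Zfp36, whose product binds AU-rich elements and speeds decay of Tnf mRNA, rose by 4.01 and 4.22. Mapkapk2, a kinase that inhibits that protein, rose by 0.93 and 1.13. Dex lowered Mapkapk2 by 0.39 in WT (limma adjusted p = 0.0442) and by 0.44 in KO (limma adjusted p = 0.0179). Within mice over 12 libraries, Zfp36 was also lower, by 0.63 in WT (limma adjusted p = 2.13e-06) and 0.72 in KO (limma adjusted p = 5.89e-07). Zfp36l1, a relative of Zfp36, was higher with Dex in that fit, by 0.41 in WT (limma adjusted p = 0.00342) and 0.66 in KO (limma adjusted p = 5.88e-05). Zc3h12a of the same list was called higher after LPS, by 0.915 in WT and 1.025 in KO. Over the 12 libraries it was also higher with Dex, by 0.367 in WT (limma adjusted p = 8.33e-05) and 0.398 in KO (limma adjusted p = 3.54e-05). Its WT change was under 1.3-fold and only the KO change was called. Rhbdf2, which helps the TNF sheddase mature, rose by 1.27 and 0.99 with LPS.

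Without the untreated WT library of mouse A, the number of genes called higher after LPS in WT was 1 for ligands, 2 for receptors, 2 for the receptor complex, 2 for ubiquitin editors and 4 for shedding and mRNA control, and no gene of the 5 lists was called lower. The WT calls of Ltbr, Tab1, Tank, Spata2 and Tnfaip8l2 thus rested on that library. Over the lists, median LPS changes in WT were 1.41 for ligands, 0.18 for receptors, 0.27 for the receptor complex, 0.26 for ubiquitin editors and 0.48 for shedding and mRNA control, against 0.02 over all genes. In KO they were 1.33, 0.10, 0.01, 0.07 and 0.17, against -0.005. Calls that were made in one genotype only, as for Ltbr, are not shown to be a difference between genotypes, since the difference of LPS response did not pass its test in the fit of all 16 libraries.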

How the data were processed

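Polyadenylated RNA of 16 BMDM libraries was prepared with a TruSeq mRNA kit and sequenced paired end on a HiSeq2500. Per the labels, the authors called bases with CASAVA 1.8, mapped reads to mm10 in CLC Bio Genomic Workbench, took the uniquely placed exonic reads of each gene and scaled them in edgeR. The deposited values are log2 CPM per gene and library, in one table of 9614 genes. The 18 columns of the authors' own p-values and false discovery rates were not used.

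The log2 CPM values were fitted with limma 3.58.1 in R 4.3.3 (lmFit, and eBayes with a trend), as 6 group means over all 16 libraries, with Benjamini-Hochberg adjustment over all genes. LPS and Dex calls needed FDR under 0.1 with over 1.5-fold and 1.3-fold, and genotype calls FDR under 0.05 with over 1.5-fold. Differences of response needed FDR under 0.05. Depth was recovered from the deposited log2 CPM: of values under 3 CPM, 100.0% were whole reads within 0.15 reads, and voom on these reads was an added alternative. The fit of 12 libraries with a mouse block was also chosen after seeing the data. Mouse numbers in the labels tie libraries to animals, and the letters A to C stand for these numbers within a genotype. Same-mouse deviations from group means correlated at 0.781 to 0.939 between LPS and LPS + Dex, and at 0.185 to 0.822 between untreated and LPS. Levels per kb used exon lengths of GENCODE vM21, and positions are those of GRCm38.

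The members and gene lists were chosen with earlier results of these data known. Named genes were all members, Nelfb, the 5 genes most like Tnf and like Tnfsf9, and the called pathway genes with the largest changes, up to 3 per direction and list. Alternatives were a filter on low values (mean log2 CPM above 1), a pseudocount of 1 CPM, median centring, a replicate block or a random block, a term for the mouse letter, the compared libraries only, mice A and B only, unadjusted p-values, and leaving out each library. Intervals are 95% and cover the spread among libraries. The scripts were tested on simulated data.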

Additional observations from a re-analysis of the deposited data

How the results depend on the processing

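Of 749 single-gene values recomputed under an alternative, 698 kept their direction and their side of the threshold, 28 changed sign, 14 gained and 9 lost their call. Tnf, Tnfsf9 and Tnfaip3 were called after LPS in both genotypes under every alternative, and no member was called between genotypes under any.

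The number of members called lower with Dex depended on the fit. In WT it was 0, and became 1 with the replicate block, 1 with the libraries of the compared groups alone, 2 with an unadjusted p under 0.01 and 3 with the block over 12 libraries. In KO it was 1, and became 2, 2, 2 and 3 in that order. Leaving out a library gave 0 to 0 members in both genotypes, where 9 to 17 of all genes were called lower in WT and 15 to 23 in KO. Leaving out a mouse from the 12 libraries gave 2 to 3 members in WT and 3 to 4 in KO. Of all genes, 197 to 222 were then called lower in WT and 231 to 255 in KO. With the compared libraries alone, Tnf was called in WT (limma adjusted p = 0.0354, against 1.75e-06 to 1.0 over all alternatives).

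Signs changed for values near 0 and, when 1 library was left out, also for some larger ones. The untreated genotype difference of Tnfsf9 was 0.245 and became -0.042 without the untreated WT library of mouse B. That of Traf1 after LPS was -0.24 and became 0.005 without the KO LPS library of mouse C. The LPS change of Tnfrsf1a in WT was -0.043 with median centring, -0.021 with the replicate block and -0.038 with mice A and B alone, and in KO it was -0.006 with median centring. The untreated genotype difference of Tnf was -0.006 with a random block. With 1 library left out, the LPS change ran from -0.114 to 0.169 for Tnfrsf1a and -0.318 to 0.027 for Traf2 in WT, and from -0.064 to 0.165 and -0.053 to 0.265 in KO. The Dex change in WT ran from -0.303 to 0.076 for Tnfsf9, -0.183 to 0.034 for Tnfrsf1a and -0.02 to 0.122 for Tnfaip3. The genotype difference ran from -0.512 to 0.599 for Tnf and -0.042 to 0.531 for Tnfsf9 untreated, from -0.542 to 0.005 for Traf1 after LPS, and from -0.128 to 0.02 for Tnf and -0.522 to 0.018 for Traf1 with LPS + Dex. The genotype difference in the Tnf LPS response ran from -0.463 to 0.648, the first without the untreated WT library of mouse B and the second without that of mouse A.

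Over all genes, LPS calls in WT were 578 higher and 302 lower, and became 1132 and 876 with the replicate block, 170 and 8 with the compared libraries, 139 and 6 with mice A and B, and 481 and 536 with median centring. Without 1 library they ran from 297 to 2366 and from 118 to 2112. LPS calls lower in KO, 119, became 204 with the block and 45 to 108 without 1 library. Dex calls in WT, 64 higher and 31 lower, became 132 and 117 with the block, 229 and 209 over 12 libraries, 104 and 71 without adjustment, 0 and 0 with mice A and B, and 32 to 45 and 9 to 17 without 1 library. Those in KO, 80 and 43, became 151 and 139 with the block and 266 and 245 over 12 libraries, had 72 lower with the compared libraries and 86 lower without adjustment, and ran from 43 to 51 and 15 to 23 without 1 library. Genotype calls after LPS, 11 higher and 3 lower, became 44 and 44 with the letter term, 19 and 12 with a random block, 0 and 0 with the compared libraries, 76 and 238 without adjustment, and 2 to 14 and 1 to 30 without 1 library. With LPS + Dex, 8 and 3 became 58 and 75, 24 and 27, 0 and 0, 100 and 237, and 2 to 18 and 1 to 52. Untreated, 1 and 0 became 345 and 387 without adjustment and at most 2 and 1 under the other fits of all libraries. Without the untreated WT library of mouse B, which leaves that of mouse A alone, they reached 2030 and 1881. With 2 untreated libraries per genotype, small LPS changes are the least certain.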
